A study of Mus musculus with 9 samples.

Results

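Killer-cell genes are described here in mouse dendritic cell cultures: *Klrk1*, *Hcst*, *Tyrobp*, *Cd247*, *Gzmb*, *Klrd1* and *Prf1*. All probe sets whose single gene symbol in the platform annotation is one of these names were taken, which gave 11 of the 45037 probe sets left after controls were removed, and 7 of 18193 genes. Messenger RNA was measured on 9 Affymetrix arrays, 3 in each of 3 groups. All cells were grown from bone marrow of the 129/SvEv strain with GM-CSF for 9 to 12 days. The first group is STING knockout cells given purified DNA of tumor cells with Lipofectamin, a lipid transfection reagent, for 7 h (STING tumor DNA). The second is wild-type cells given the same kind of DNA in the same way (WT tumor DNA), and the third is unstimulated wild-type cells (WT media). STING is the adaptor through which DNA found in the cytosol switches on interferon genes. Knockout cells without DNA and cells given the reagent alone were not analysed here, so DNA and reagent cannot be told apart, nor can a knockout effect that is there without DNA be told apart from one on the response. Whether the samples of a group were separate mice or separate cultures is not stated in the labels, so the p-values cover the spread between samples that may differ only technically.

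Natural killer cells and cytotoxic T cells kill target cells by releasing granules. *Prf1* encodes perforin, which opens pores in the target membrane, and *Gzmb* encodes granzyme B, a protease that enters through them and starts apoptosis. *Klrk1* encodes NKG2D, an activating receptor for stress ligands of the MHC class I-like kind, and *Klrd1* encodes CD94, which pairs with NKG2 proteins to read the non-classical MHC molecule Qa-1 in mice. These receptors lack signalling tails and rely on adaptors: DAP10, the product of *Hcst*, and DAP12, the product of *Tyrobp*, both serve NKG2D in the mouse. *Cd247* encodes CD3 zeta, the signalling chain of the T cell receptor and of several NK receptors. DAP12 and DAP10 are also widely made by myeloid cells, where DAP12 carries the signals of TREM receptors and their relatives. Dendritic cells are not classical killer cells, but expression of some of these genes has been described in subsets of them.

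The deposited values are MAS5 signals in arbitrary linear units, scaled by the submitters so that the trimmed mean was 500 on each array, and the array medians were 53.7 to 70.9. A signal near or below the median was not shown to lie above background, because no detection calls were used. Differences were tested with limma on log2(signal + 16), an offset that understates changes of dim genes, over the 12586 genes whose brightest probe set lay above a filter on low signals. The threshold for a call was an adjusted p of 0.05. As a check of the labels, *Sting1* (1427911_at) read 246, 336 and 327 in STING tumor DNA, 2258, 1061 and 1158 in WT tumor DNA and 1524, 1081 and 646 in WT media. A spike-in, BioB, was at 406 to 552 on arrays with number 1, against 115 to 189 for numbers 2 and 3, so each difference is also given within each replicate number, which holds 1 array of every group. Because the cultures were measured in bulk, more cells of a kind and more RNA per cell cannot be told apart.

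Genes of dendritic cells and macrophages were looked at first, in 1 list that does not tell these cells apart. *Itgax*, *Cd74*, *Csf1r*, *Adgre1* and *Cd68* lay above the array median on all 9 arrays. *Flt3* and *Cd209e* lay above it on 0 arrays, *Xcr1* on 1 and *Cd209a* on 4. *Zbtb46* lay above it on 7 at its brightest probe set. Of 20 measured dendritic cell and macrophage genes, 15 to 18 lay above the array median on each array, and their summed signal was 139990 to 176850 in STING tumor DNA, 169770 to 203110 in WT tumor DNA and 162650 to 184890 in WT media. *Ccr7*, the receptor that guides mature dendritic cells to lymph nodes, was called higher in WT tumor DNA against WT media, by 1.20 ± 0.33 in log2 (SE, n = 3 per group, limma adjusted p = 0.019). *Mertk*, a receptor for apoptotic cells, was called lower in STING tumor DNA against WT tumor DNA, by a difference of -1.65 ± 0.54 (limma adjusted p = 0.042). With the replicate number as a block, 2 genes of this list were called higher and 3 lower in WT tumor DNA against WT media, and 3 higher and 4 lower in STING tumor DNA against WT tumor DNA. The shares of all genes called with the block in these comparisons are not given here. Block counts of this and later lists therefore have no background beside them.

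Of the 7 genes, *Klrk1*, *Cd247* and *Gzmb* were called higher in WT tumor DNA than in WT media and called lower in STING tumor DNA than in WT tumor DNA. The adaptor genes *Hcst* and *Tyrobp* were bright in every group and passed neither test, nor did *Prf1*. *Klrd1* and 3 of the 4 *Cd247* probe sets lay below the filter. Among all genes tested, 9.94% were called higher and 23.6% lower in WT tumor DNA against WT media, and 21.8% higher and 9.73% lower in STING tumor DNA against WT tumor DNA. *Gzmb* passed the filter only through its signals in WT tumor DNA, as its mean log2 signal was 5.90 over all 9 arrays and 5.19 over the 6 arrays of the other groups, against a filter of 5.67. *Klrk1*, *Cd247*, *Hcst*, *Tyrobp* and *Prf1* passed with or without that group. The *Gzmb* calls are therefore given as a description. In the probe set fit without a filter, the limma adjusted p of *Gzmb* was 0.056 in WT tumor DNA against WT media. It was 0.019 in STING tumor DNA against WT tumor DNA. Both comparisons use the WT tumor DNA arrays, so their opposite signs are not independent.

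The sequences at the gene starts are shown for the 3 genes called in both comparisons, since they moved in the same direction. *Gzmb* is among them with the limit on its calls given above. They are from RefSeq on GRCm38.p6, 250 bases before to 50 bases after the start, 5′ to 3′ on the gene's strand. *Klrk1* lies on the minus strand at chr6:129623815-129624114, *Cd247* on the plus strand at chr1:165788431-165788730 and *Gzmb* on the minus strand at chr14:56262285-56262584. Capitals mark a match to AANNGAAA, the half-site of interferon regulatory factors, in *Klrk1* and to TTCNNNGAA, the STAT motif, in *Gzmb*.
Klrk1: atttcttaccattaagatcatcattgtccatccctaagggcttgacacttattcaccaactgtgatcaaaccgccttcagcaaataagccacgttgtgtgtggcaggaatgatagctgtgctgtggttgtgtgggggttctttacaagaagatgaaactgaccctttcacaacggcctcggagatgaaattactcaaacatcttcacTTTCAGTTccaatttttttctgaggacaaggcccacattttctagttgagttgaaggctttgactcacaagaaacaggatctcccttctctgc
Cd247: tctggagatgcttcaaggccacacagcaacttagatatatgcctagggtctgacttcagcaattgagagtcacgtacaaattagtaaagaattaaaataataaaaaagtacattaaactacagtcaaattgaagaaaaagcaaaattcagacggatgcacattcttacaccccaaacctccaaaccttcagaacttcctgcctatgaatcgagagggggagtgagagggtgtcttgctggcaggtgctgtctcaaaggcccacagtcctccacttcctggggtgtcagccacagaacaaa
Gzmb: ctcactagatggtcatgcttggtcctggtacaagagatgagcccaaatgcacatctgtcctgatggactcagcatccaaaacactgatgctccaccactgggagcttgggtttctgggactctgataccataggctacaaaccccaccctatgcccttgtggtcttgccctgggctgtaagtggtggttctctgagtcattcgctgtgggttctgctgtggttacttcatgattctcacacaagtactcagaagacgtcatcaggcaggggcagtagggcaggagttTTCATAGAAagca
The table held a sequence for 5 of the 7 genes, and *Klrd1* and *Tyrobp* were not among them. On both strands, the core of the interferon-stimulated response element, GAAA followed after any pair of bases by GAAA, was in none of the 5, and it was in 3.44% of 32851 promoters of this length. TTCNNNGAA was in *Gzmb* alone of the 5, as TTCATAGAA starting 37 bases after the gene start, and in 8.30% of all promoters. AANNGAAA, a motif searched after the sequences had been seen and contained in the longer element, was in *Klrk1* alone of the 5, as TTTCAGTT on the gene's strand 43 bases before the start. It was in 23.9% of all promoters. A match describes the letters and is not a measured binding site.

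The NKG2D gene *Klrk1* (1450495_a_at, chromosome 6) had the largest differences of the 7 genes. Its signals were 81.9, 105 and 96.8 in STING tumor DNA, 1438, 1234 and 762 in WT tumor DNA and 100, 82.9 and 62.5 in WT media. All 3 WT tumor DNA arrays lay above all 6 others, while STING tumor DNA and WT media overlapped. Of all genes tested, 46.4% had groups that did not overlap in WT tumor DNA against WT media and 46% in STING tumor DNA against WT tumor DNA. In WT tumor DNA against WT media *Klrk1* was 3.54 ± 0.26 higher in log2 (SE, n = 3 per group, limma adjusted p = 9.2e-05), with 3.64, 3.66 and 3.31 within replicate numbers 1, 2 and 3. The ratio of the mean signals was 14.0, and in the order of all 12586 differences *Klrk1* stood 39th from the top. In STING tumor DNA against WT tumor DNA the difference was -3.35 ± 0.26 (limma adjusted p = 6.5e-05), with -3.89, -3.37 and -2.79 within the numbers. STING tumor DNA differed from WT media by 0.19 ± 0.26 (limma adjusted p = 0.96). The call in both comparisons held under all 10 processing alternatives and all 12 fits that left out an array or a number.

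The adaptor genes of NKG2D passed the test in neither comparison. *Hcst*, for DAP10 (1419119_at, chromosome 7), read 853, 749 and 795 in STING tumor DNA, 1087, 914 and 1036 in WT tumor DNA and 1093, 876 and 1227 in WT media. The 3 knockout arrays were lower than the 6 wild-type arrays, and the wild-type groups overlapped. *Hcst* differed by -0.33 ± 0.17 in STING tumor DNA against WT tumor DNA (limma adjusted p = 0.15), by -0.06 ± 0.17 in WT tumor DNA against WT media (limma adjusted p = 0.80) and by -0.40 ± 0.17 in STING tumor DNA against WT media (limma adjusted p = 0.61, unadjusted p = 0.038). In STING tumor DNA against WT media, groups that did not overlap were found for 13.8% of all genes tested.

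*Tyrobp*, for DAP12 (1450792_at, chromosome 7), read 18366, 17289 and 19143 in STING tumor DNA, 20171, 19147 and 17723 in WT tumor DNA and 20743, 18022 and 20232 in WT media. The 3 groups overlapped, and on every array the signal stood at a percentile of 99.2 to 99.6 of that array. *Tyrobp* differed by -0.06 ± 0.10 in STING tumor DNA against WT tumor DNA (limma adjusted p = 0.70), by -0.05 ± 0.10 in WT tumor DNA against WT media (limma adjusted p = 0.75) and by -0.11 ± 0.10 in STING tumor DNA against WT media (limma adjusted p = 0.93). After quantile normalization the difference in WT tumor DNA against WT media was -0.27 with an adjusted p of 0.030. *Hcst* and *Tyrobp* are neighbours on chromosome 7, and *Nfkbid*, next to *Hcst*, was called higher in STING tumor DNA against WT tumor DNA, by 0.94 ± 0.24 (limma adjusted p = 0.015). *Nfkbid* encodes a nuclear regulator of NF-kB and was chosen by position, not by function.

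*Cd247*, for CD3 zeta, had 4 probe sets on chromosome 1, and only the brightest lay above the filter. The brightest, 1426396_at, read 47.4, 43.9 and 47.2 in STING tumor DNA, 175, 117 and 92.7 in WT tumor DNA and 52.6, 43.3 and 46.1 in WT media. The WT tumor DNA arrays lay above the array median and above all 6 others, which lay below it. The difference was 1.15 ± 0.27 in WT tumor DNA against WT media (limma adjusted p = 0.0092; 1.48, 1.16 and 0.81 within the numbers). In STING tumor DNA against WT tumor DNA it was -1.17 ± 0.27 (limma adjusted p = 0.0083), with -1.59, -1.15 and -0.78 within the numbers. STING tumor DNA and WT media overlapped and differed by -0.02 ± 0.27 (limma adjusted p = 0.99). Both calls ended when any 1 of the 3 numbers was left out, with adjusted p up to 0.077 in WT tumor DNA against WT media and 0.073 in STING tumor DNA against WT tumor DNA.

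The other 3 *Cd247* probe sets read below the array median on all 9 arrays. Signals of 1452539_a_at were 3.74, 5.95 and 18.5 in STING tumor DNA, 47.4, 43.3 and 11.6 in WT tumor DNA and 5.48, 3.26 and 18.3 in WT media. Its replicate numbers 1 and 2 were higher in WT tumor DNA and number 3 was not, and in a fit without the filter over all 45037 probe sets it differed by 0.96 ± 0.38 in WT tumor DNA against WT media (limma adjusted p = 0.14) and by -0.93 ± 0.38 in STING tumor DNA against WT tumor DNA (limma adjusted p = 0.15). For 1420716_at and 1426079_at the differences in WT tumor DNA against WT media were -0.19 ± 0.48 and -0.25 ± 0.44 (limma adjusted p = 0.86 and 0.78), opposite in sign to the brightest probe set. In STING tumor DNA against WT tumor DNA they were 0.52 ± 0.48 and -0.25 ± 0.44 (limma adjusted p = 0.57 and 0.79). Whether the 4 probe sets read different transcripts of *Cd247* was not tested. *Cd247* overlaps *Pou2f1* in RefSeq, for which no probe set with a single symbol was analysed here.

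The granzyme B gene *Gzmb* (1419060_at, chromosome 14) was dim outside WT tumor DNA. It read 3.64, 42.3 and 8.36 in STING tumor DNA, 257, 96.5 and 116 in WT tumor DNA and 74.6, 8.04 and 22.4 in WT media. All 3 WT tumor DNA arrays exceeded all 6 others. STING tumor DNA and WT media overlapped, and 5 of their 6 arrays lay below their array median. The difference was 1.87 ± 0.58 in WT tumor DNA against WT media (limma adjusted p = 0.033), with 1.59, 2.23 and 1.79 within the numbers. In STING tumor DNA against WT tumor DNA it was -2.39 ± 0.58 (limma adjusted p = 0.012), with -3.80, -0.95 and -2.44 within the numbers. These sizes depend on the offset, since signals in the lower groups were near the floor: with offsets of 64 and 1 the difference in WT tumor DNA against WT media was 1.14 and 2.51, and with 1 the adjusted p was 0.069. That call also ended without WT tumor DNA array 1 or 3, WT media array 2 or 3, or number 2 or 3 (adjusted p up to 0.18). The call in STING tumor DNA against WT tumor DNA ended without number 1 (adjusted p = 0.054) or 3 (adjusted p = 0.12).

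*Prf1*, for perforin (chromosome 10), had 2 probe sets, both near or below the array median. The brighter, 1451862_a_at, read 62.5, 87.9 and 72.2 in STING tumor DNA, 44.3, 74.1 and 71.8 in WT tumor DNA and 56.1, 41.6 and 49.1 in WT media. WT tumor DNA overlapped both other groups, and each knockout array was above each media array. The difference was 0.20 ± 0.27 in STING tumor DNA against WT tumor DNA (limma adjusted p = 0.61), 0.27 ± 0.27 in WT tumor DNA against WT media (limma adjusted p = 0.47) and 0.47 ± 0.27 in STING tumor DNA against WT media (limma adjusted p = 0.78). The other probe set, 1450335_at, read 10.5, 14.9 and 64.1 in STING tumor DNA, 13.8, 27.6 and 64.6 in WT tumor DNA and 38.9, 54.6 and 73.6 in WT media. It had the opposite sign, with a difference of -0.58 ± 0.50 in WT tumor DNA against WT media (limma adjusted p = 0.43). Neither probe set was called in any of the 3 comparisons.

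The CD94 gene *Klrd1* (1460245_at), which adjoins *Klrk1* on chromosome 6, stayed dim. Its signals were 2.65, 109 and 39.7 in STING tumor DNA, 26.2, 27.6 and 25.2 in WT tumor DNA and 24.2, 24.8 and 4.56 in WT media. Only STING tumor DNA array 2 was above its array median, and the knockout arrays spanned the whole range. In the fit without the filter *Klrd1* differed by 0.39 ± 0.58 in WT tumor DNA against WT media (limma adjusted p = 0.74) and by 0.26 ± 0.58 in STING tumor DNA against WT tumor DNA (limma adjusted p = 0.84). *Klrc3*, on the other side of *Klrk1* and encoding an NKG2 protein that pairs with CD94, read at most 9.22 in WT tumor DNA and at most 1.50 in WT media. *Gzmc*, the granzyme gene next to *Gzmb*, read 1.58 to 7.12 in WT tumor DNA and 1.25 to 3.42 in WT media. Both neighbours lay below the filter.

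**Figure D1:**
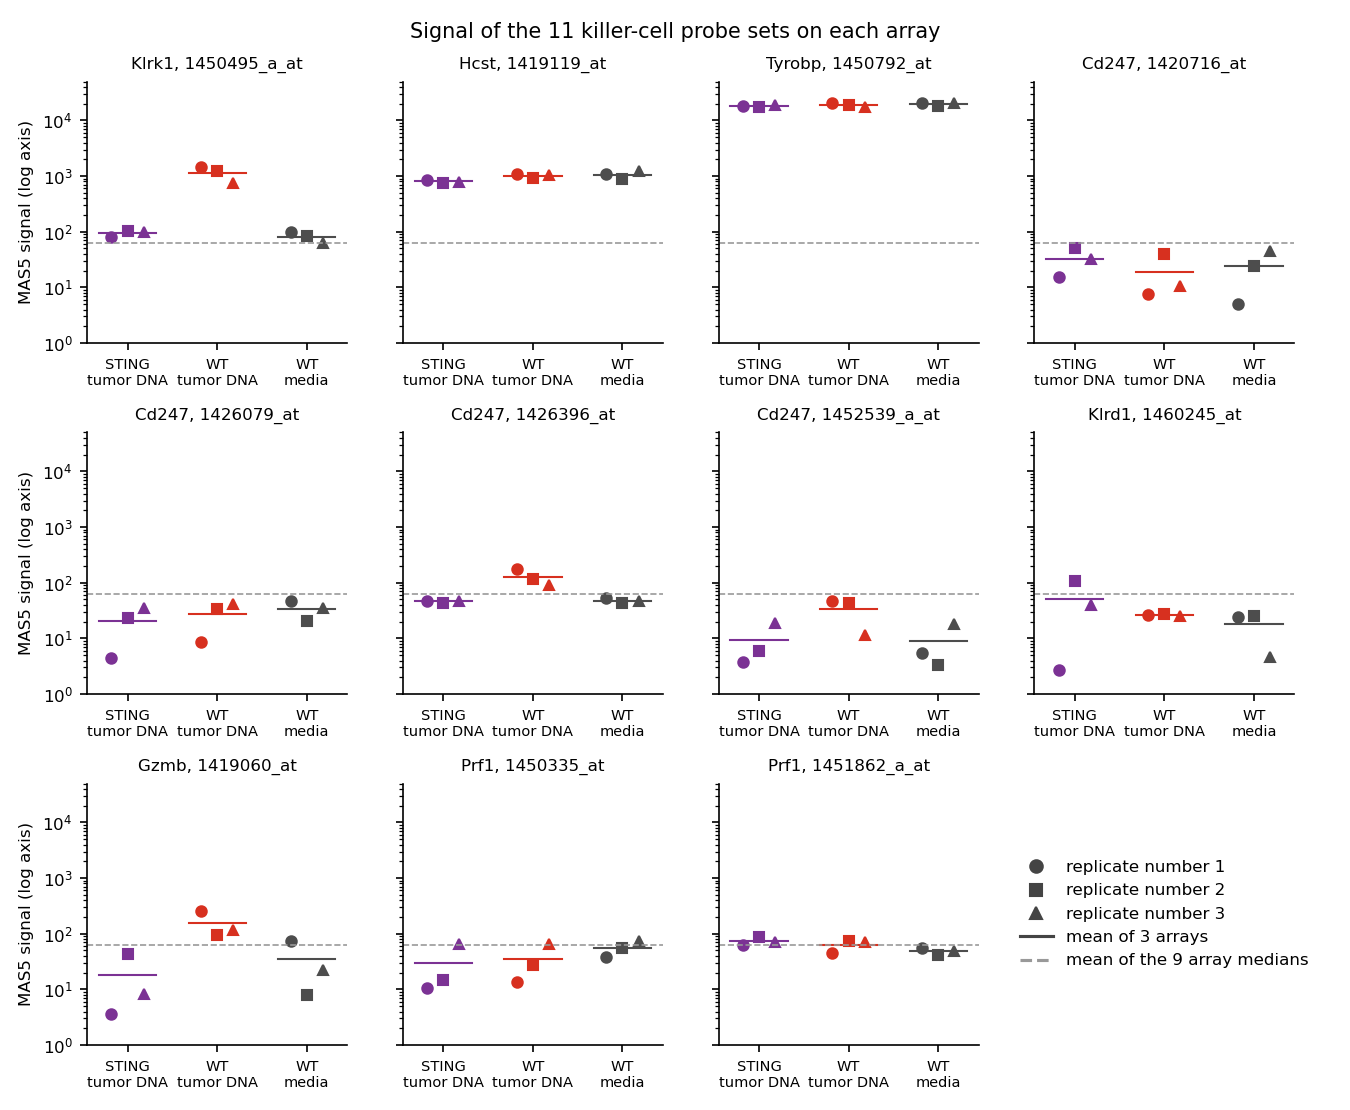
Signals of the 11 probe sets on each array, in MAS5 units on a log axis, with a panel for each probe set, a marker shape for each replicate number, a line at the mean of 3 arrays and a dashed line at the mean of the 9 array medians. Klrk1, Gzmb and Cd247 probe set 1426396_at stand above both other groups in WT tumor DNA, with Klrk1 at 762 to 1438, and Hcst and Tyrobp are bright in every group.

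**Figure D2:**
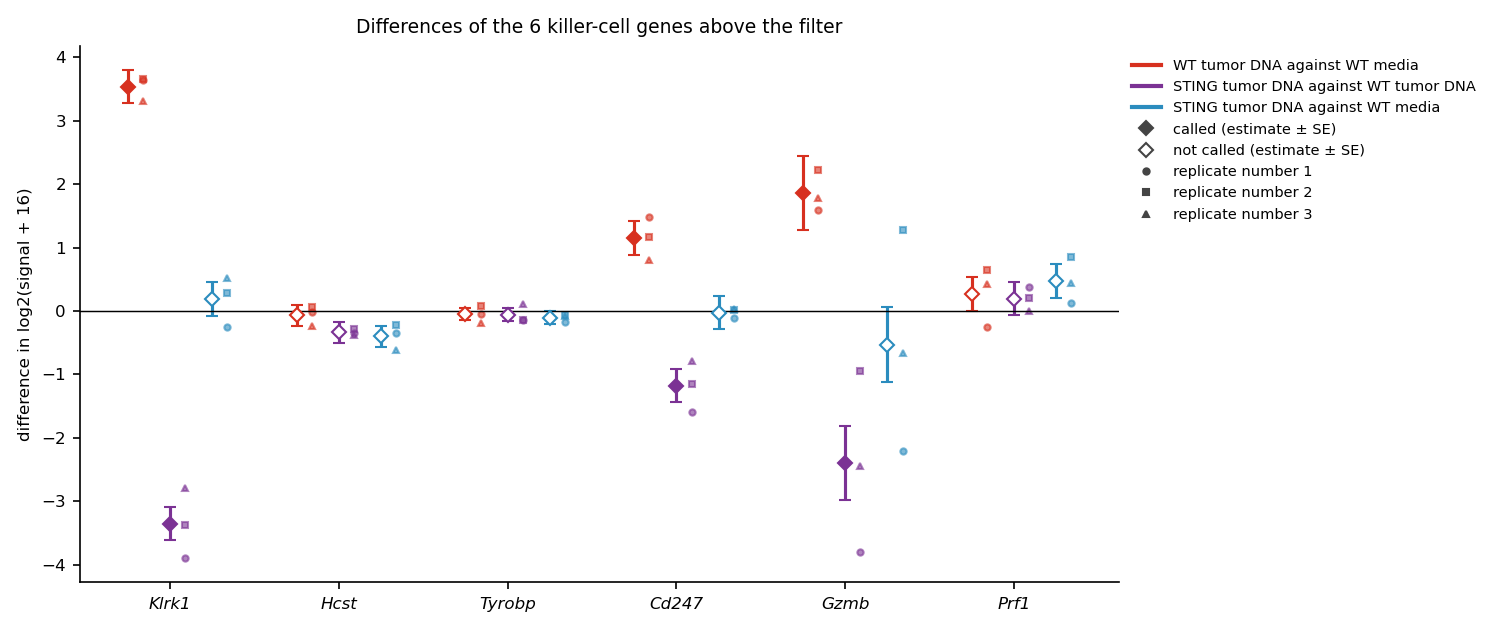
Differences in log2(signal + 16) of the 6 genes above the filter in 3 comparisons; diamonds are limma estimates with their SE (filled where called) and small points are differences within replicate numbers. Klrk1 differs by 3.54 in WT tumor DNA against WT media and -3.35 in STING tumor DNA against WT tumor DNA, while Hcst, Tyrobp and Prf1 are not called.

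By the same model, STING tumor DNA and WT media differed in few genes, as 0.429% of the 12586 were called, and none of the 6 tested killer-cell genes was among them. For *Gzmb* the difference was -0.53 ± 0.58 (limma adjusted p = 0.95), with -2.21, 1.28 and -0.66 within the numbers. At an unadjusted p below 0.05 only *Hcst* passed among the 6. The interval of these differences is wide for the dim genes, so a p above the threshold does not show that the groups were alike.

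The genes around NKG2D were then described by lists. The background for each list is the share of all genes tested that was called. In WT tumor DNA against WT media it was 9.94% higher and 23.6% lower. In STING tumor DNA against WT tumor DNA it was 21.8% higher and 9.73% lower. Of 26 measured killer-cell lectin-like and other NK receptors, 12 lay above the filter. Of these, 4 were called higher and none lower in WT tumor DNA against WT media, and none higher and 5 lower in STING tumor DNA against WT tumor DNA. Their median difference was 0.53 in WT tumor DNA against WT media, beside -0.20 for all genes, and -0.35 in STING tumor DNA against WT tumor DNA, beside 0.20 for all genes. *Slamf7*, a receptor of NK cells and activated myeloid cells, read 211, 70.6 and 200.3 in STING tumor DNA, 4230, 1510 and 1960 in WT tumor DNA and 177, 137 and 161 in WT media. It differed by -3.85 ± 0.43 in STING tumor DNA against WT tumor DNA (limma adjusted p = 0.00031) and by 3.75 ± 0.43 in WT tumor DNA against WT media (limma adjusted p = 0.00048). *Klrg2*, a lectin-like receptor, differed by 1.84 ± 0.43 and *Fcgr4*, a receptor for IgG on myeloid cells, by 1.84 ± 0.44 in WT tumor DNA against WT media (limma adjusted p = 0.0099 and 0.010). *Klrg2* differed by -2.13 ± 0.43 in STING tumor DNA against WT tumor DNA (limma adjusted p = 0.0049). *Klrg2*, 1 of the 4 higher and 1 of the 5 lower, passed the filter only through WT tumor DNA, where it was high, with a mean of 5.76 on the log2 scale over the 9 arrays and 5.10 without that group, so its calls are given as a description. *Klra2*, a Ly49 family member, was 0.83 ± 0.25 higher in WT tumor DNA than in WT media (limma adjusted p = 0.026) and differed by -1.07 ± 0.25 in STING tumor DNA against WT tumor DNA (limma adjusted p = 0.0091). *Clec2d*, whose product is a ligand of an NKR-P1 receptor, was lower in STING tumor DNA than in WT tumor DNA, by a difference of -1.59 ± 0.46 (limma adjusted p = 0.024). With the replicate block, 2 receptors were also called lower in WT tumor DNA against WT media and 1 higher in STING tumor DNA against WT tumor DNA.

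Of the NKG2D ligands, 2 of 9 listed genes were measured, and the others were not analysed here. *H60c* read 36.8, 43.0 and 35.9 in STING tumor DNA, 329, 114 and 146 in WT tumor DNA and 42.3, 35.1 and 38.7 in WT media. All WT tumor DNA arrays lay above the others. *H60c* differed by -1.83 ± 0.35 in STING tumor DNA against WT tumor DNA (limma adjusted p = 0.0036) and by 1.83 ± 0.35 in WT tumor DNA against WT media (limma adjusted p = 0.0039). *Ulbp1* differed by -0.69 ± 0.32 and 0.57 ± 0.32 in the same comparisons (limma adjusted p = 0.13 and 0.20).

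Of 22 other measured genes of the cytotoxic granule machinery 12 were tested, of which 6 were called higher and none lower in WT tumor DNA against WT media, and none higher and 5 lower in STING tumor DNA against WT tumor DNA. Their medians were 0.50 and -0.52 in these comparisons, beside -0.20 and 0.20 for all genes. No granzyme gene of this list was called. *Gzmc*, *Gzmd*, *Gzme*, *Gzmf*, *Gzmg* and *Gzmk* lay below the filter, as did *Nkg7*, *Fasl*, *Ctsw* and *Crtam*. *Gzma* and *Gzmm* passed it only through WT tumor DNA. Their limma adjusted p was 0.35 and 0.47 in WT tumor DNA against WT media. *Serpinb9*, whose product inhibits granzyme B, read 1223, 1303 and 1720 in STING tumor DNA, 11242, 9387 and 7871 in WT tumor DNA and 851, 1087 and 688 in WT media. It differed by -2.73 ± 0.21 in STING tumor DNA against WT tumor DNA (limma adjusted p = 6.2e-05) and by 3.43 ± 0.21 in WT tumor DNA against WT media (limma adjusted p = 3.7e-05). *Stx11*, a syntaxin needed for granule release in killer cells, differed by -2.68 ± 0.26 and 2.70 ± 0.26 (limma adjusted p = 0.00018 and 0.00026), and *Tnfsf10*, for the death ligand TRAIL, by -5.16 ± 0.52 and 3.92 ± 0.52 (limma adjusted p = 0.00020 and 0.00084). *Ctsc*, the protease that activates granzymes, and *Srgn*, the proteoglycan core of granules, were among the called genes in both comparisons.

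Signalling genes downstream of DAP10, DAP12 and CD3 zeta went both ways, as did all genes tested. The shares over all genes were 9.94% higher and 23.6% lower in WT tumor DNA against WT media. They were 21.8% higher and 9.73% lower in STING tumor DNA against WT tumor DNA. Of 20 measured and tested, 5 were called higher and 4 lower in WT tumor DNA against WT media, and 3 higher and 1 lower in STING tumor DNA against WT tumor DNA. *Vav2*, a guanine nucleotide exchange factor, was lower in WT tumor DNA than in WT media by a difference of -1.80 ± 0.22 (limma adjusted p = 0.00064) and higher in STING tumor DNA than in WT tumor DNA by 1.83 ± 0.22 (limma adjusted p = 0.00047). *Fyn*, a Src family kinase, was 1.12 ± 0.18 higher in WT tumor DNA than in WT media (limma adjusted p = 0.0019), and *Lcp2*, an adaptor of immune receptor signalling, 0.75 ± 0.20 higher (limma adjusted p = 0.017). *Pik3cg*, a catalytic subunit of phosphoinositide 3-kinase, was 1.01 ± 0.24 higher in STING tumor DNA than in WT tumor DNA (limma adjusted p = 0.010). *Fcer1g*, the common gamma chain adaptor of Fc receptors, was the gene called lower in that comparison, by a difference of -0.44 ± 0.12 (limma adjusted p = 0.020). With the replicate block, 5 genes of this list were called higher and 2 lower in STING tumor DNA against WT tumor DNA, and 1 higher in STING tumor DNA against WT media.

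Of the myeloid receptors that pair with DAP12, 11 were tested, 2 were called higher and 2 lower in WT tumor DNA against WT media, and 3 higher and 1 lower in STING tumor DNA against WT tumor DNA (2 lower with the replicate block). Calls in both directions were also found among all genes tested, at the shares given above. *Cd300lb*, an activating receptor of the CD300 family, differed by 1.11 ± 0.28 in STING tumor DNA against WT tumor DNA and by -1.02 ± 0.28 in WT tumor DNA against WT media (limma adjusted p = 0.013 and 0.018). *Clec5a*, a lectin-like receptor, was 1.05 ± 0.30 higher in WT tumor DNA than in WT media (limma adjusted p = 0.023), and *Trem3*, of the TREM receptor family, 0.71 ± 0.22 higher (limma adjusted p = 0.029). Its relatives *Treml4* and *Trem2* were 1.22 ± 0.31 and 1.51 ± 0.44 higher in STING tumor DNA than in WT tumor DNA (limma adjusted p = 0.014 and 0.026).

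Cytokines and receptors that activate NK cells were mostly called. Of 13 tested genes, 9 were called higher and none lower in WT tumor DNA against WT media, and none higher and 9 lower in STING tumor DNA against WT tumor DNA, with medians of 1.82 and -1.38. *Il12a*, for a chain of IL-12 and 1 of the 9 higher, passed the filter only through WT tumor DNA. With the replicate block 1 was also called lower in WT tumor DNA against WT media and 1 higher in STING tumor DNA against WT tumor DNA. *Il15ra*, which presents IL-15 to NK cells, differed by -3.63 ± 0.34 in STING tumor DNA against WT tumor DNA and by 3.42 ± 0.34 in WT tumor DNA against WT media (limma adjusted p = 0.00014 and 0.00029). *Il12rb1*, a chain of the IL-12 receptor, differed by -2.38 ± 0.23 and 2.48 ± 0.23 (limma adjusted p = 0.00015 and 0.00021). *Ifnb1*, for interferon beta, had differences of -7.29 ± 0.42 and 7.19 ± 0.42 (limma adjusted p = 1.5e-05 and 3.7e-05), with signals of 43.3 to 62.5 in STING tumor DNA and 47.3 to 72.4 in WT media that were not shown to lie above background. Of 11 tested transcription factors of killer cells, 2 were called higher in WT tumor DNA against WT media (4 with the replicate block), and 1 was called higher and 2 lower in STING tumor DNA against WT tumor DNA. *Irf1* differed by -2.48 ± 0.52 and 1.97 ± 0.52 in STING tumor DNA against WT tumor DNA and in WT tumor DNA against WT media (limma adjusted p = 0.0061 and 0.017). *Id2*, an inhibitor of E proteins, was 0.50 ± 0.15 higher in WT tumor DNA than in WT media (limma adjusted p = 0.029). *Ikzf3*, for the zinc finger factor Aiolos, differed by -2.23 ± 0.39 and *Irf4*, an interferon regulatory factor, by 0.88 ± 0.26 in STING tumor DNA against WT tumor DNA (limma adjusted p = 0.0025 and 0.027). *Ikzf3* read 10.2 to 45.2 in STING tumor DNA and 102 to 188 in WT media. *Tbx21* and *Eomes*, the T-box factors that define NK cells, were below the array median on all 9 arrays. In STING tumor DNA against WT media no gene of any of the 14 lists was called. With the replicate block 1 gene was called in each of 5 lists (signalling, transcription factors, mast cells, neutrophils and plasmacytoid dendritic cells).

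**Figure D3:**
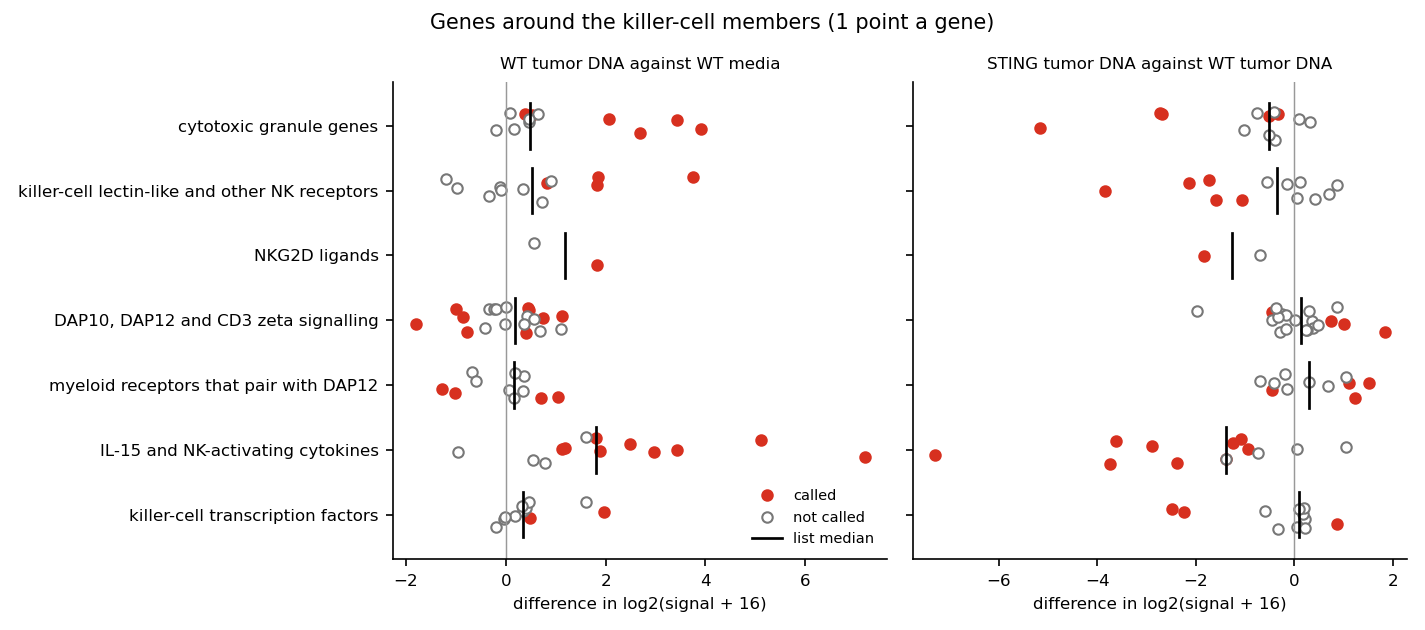
Differences in log2(signal + 16) of the tested genes of 7 lists, 1 point a gene, filled where called, with the list median as a line, for WT tumor DNA against WT media (left) and STING tumor DNA against WT tumor DNA (right). The cytokine list has medians of 1.82 and -1.38, and the DAP10, DAP12 and CD3 zeta signalling list has calls in both directions.

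Markers of T and NK cells were measured beside these genes, since such cells could be present in bone marrow cultures. Of 12 NK cell defining markers on the array, 9 were below the array median on all 9 arrays: *Ncr1*, *Klre1*, *Gzma*, *Nkg7*, *Eomes*, *Tbx21*, *Xcl1*, *Klra8* and *Khdc1a*. Of 16 T cell defining markers, 10 were below it throughout, among them *Cd3e*, *Cd3d*, *Cd3g*, *Cd4* and *Cd8b1*. These counts hold for every probe set of each gene, whereas *Cd8a* lay below the median throughout at its brightest probe set but not at every probe set. *Cd3e* read 5.79 to 13.3 in STING tumor DNA, 10.6 to 30.5 in WT tumor DNA and 25.3 to 42.5 in WT media. *Ncr1*, for the NK receptor NKp46, read 26.6 to 57.1 in STING tumor DNA, 7.36 to 55.7 in WT tumor DNA and 22.2 to 48.0 in WT media.

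The summed signal of the NK markers was nonetheless higher in WT tumor DNA, at 5776 to 10483 in STING tumor DNA, 22498 to 28582 in WT tumor DNA and 4473 to 10297 in WT media. Nearly all of it was *Ccl5*, a chemokine that activated dendritic cells also make, which read 10269, 5445 and 8404 in STING tumor DNA, 28297, 22166 and 22217 in WT tumor DNA and 10046, 4272 and 6273 in WT media. Of the 3 tested NK markers only *Ccl5* was called, by -1.63 ± 0.31 in STING tumor DNA against WT tumor DNA and 1.90 ± 0.31 in WT tumor DNA against WT media (limma adjusted p = 0.0034 and 0.0020). *Cd160* and *Gzma*, next in signal, differed by 0.34 ± 0.45 and 0.47 ± 0.36 in WT tumor DNA against WT media (limma adjusted p = 0.60 and 0.35).

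The summed signal of the T cell markers was 7972 to 10208 in STING tumor DNA, 12801 to 15981 in WT tumor DNA and 6022 to 11024 in WT media, mostly from *Il7r*. *Il7r*, the IL-7 receptor, was called higher in WT tumor DNA against WT media, by 0.89 ± 0.22, and lower in STING tumor DNA against WT tumor DNA, by a difference of -0.79 ± 0.22 (limma adjusted p = 0.012 and 0.021). *Cd28* was called in the opposite directions, by -1.99 ± 0.47 and 1.54 ± 0.47 (limma adjusted p = 0.010 and 0.032). *Thy1* differed by 0.71 ± 0.80 in WT tumor DNA against WT media (limma adjusted p = 0.53). The part of T or NK cells in the *Klrk1*, *Cd247* and *Gzmb* differences was not tested beyond these values.

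Mast cells and basophils, plasmacytoid dendritic cells and other cells that GM-CSF cultures can hold were examined in the same way. Of 9 tested mast cell and basophil markers, 1 was called higher in WT tumor DNA against WT media and 4 were called lower in STING tumor DNA against WT tumor DNA. *Hdc*, for histidine decarboxylase, differed by -4.46 ± 0.68 and 4.14 ± 0.68 in STING tumor DNA against WT tumor DNA and in WT tumor DNA against WT media (limma adjusted p = 0.0013 and 0.0021). *Fcer1a*, for the IgE receptor, differed by -1.99 ± 0.45 in STING tumor DNA against WT tumor DNA (limma adjusted p = 0.0081), and *Cpa3*, for a mast cell carboxypeptidase, by -1.51 ± 0.44 (limma adjusted p = 0.027). The summed signal of this list was 581 to 914 in STING tumor DNA, 2013 to 4074 in WT tumor DNA and 933 to 1870 in WT media, and *Mcpt1*, *Mcpt2*, *Mcpt4*, *Tpsb2* and *Cma1* were below the array median throughout.

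Of 10 plasmacytoid dendritic cell markers, 3 were called higher in WT tumor DNA against WT media and 3 lower in STING tumor DNA against WT tumor DNA, namely *Bst2*, *Tcf4* and *Tlr7* in each. Their summed signal was 6224 to 11091 in STING tumor DNA, 24792 to 32092 in WT tumor DNA and 9316 to 12942 in WT media. *Siglech*, a defining marker of these cells, went the other way without a call, at 1.04 ± 0.45 and -0.68 ± 0.45 (limma adjusted p = 0.11 and 0.28) in STING tumor DNA against WT tumor DNA and in WT tumor DNA against WT media, and was named after its value was seen. Of 7 tested B cell markers *Cd22* alone was called, lower in WT tumor DNA against WT media by a difference of -0.77 ± 0.19 (limma adjusted p = 0.013) and higher in STING tumor DNA against WT tumor DNA, and 3 others were called lower with the replicate block in the second comparison. Of 10 neutrophil markers *Mmp8* was called lower in WT tumor DNA against WT media, by a difference of -0.64 ± 0.13 (limma adjusted p = 0.0056). *Mpo* was called lower in STING tumor DNA against WT tumor DNA, by a difference of -1.08 ± 0.35 (limma adjusted p = 0.040), and read 99.5 to 140 in STING tumor DNA and 167 to 445 in WT media. With the replicate block 5 neutrophil markers were called lower and 1 higher in STING tumor DNA against WT tumor DNA. The part of these cells in the killer-cell gene differences was not tested.

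**Figure D4:**
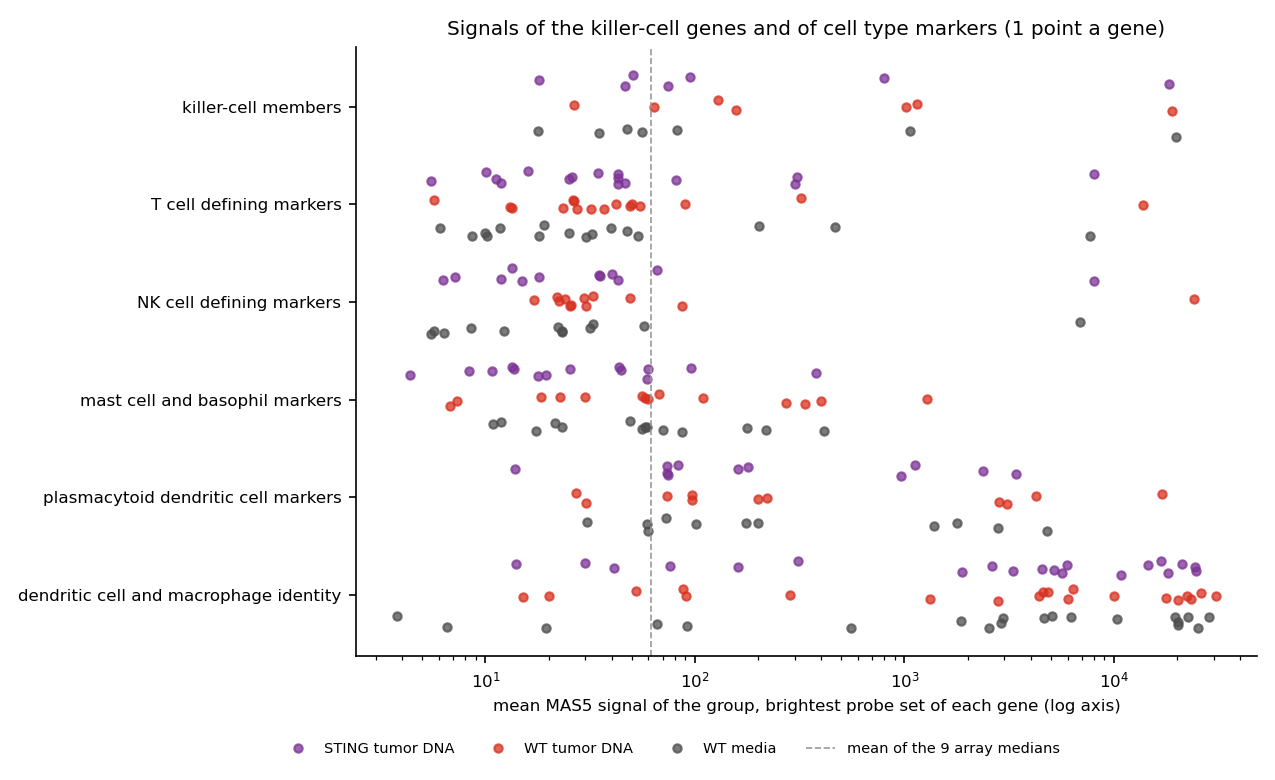
Mean MAS5 signal of each group (log axis) for the 7 killer-cell genes and for markers of 5 cell types, 1 point a gene, at its brightest probe set, with the mean of the 9 array medians as a dashed line. Most T and NK cell markers lie left of that line in all 3 groups, and most dendritic cell and macrophage genes lie right of it. Among the NK markers, Ccl5 lies far right of it, beyond all the others. Cd160 lies slightly right of it in STING tumor DNA and WT tumor DNA.

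Over the 9 arrays, the genes whose log2 signals were most like those of *Klrk1* were *Sfmbt2* (Pearson r = 0.993), *Carhsp1* (0.992), *Prpf38a* (0.992), *Hibadh* (0.988) and *Rnf19b* (0.987). For *Gzmb* they were *Klrg2* (r = 0.978), *Kalrn* (0.967), *Tuba8* (0.939), *Casp12* (0.938) and *Clec4f* (0.935). These correlations run over 3 groups that share treatment and array, so they describe the order of the signals among 12580 genes and carry no test. All 5 genes like *Klrk1* were called in both comparisons, from 0.72 for *Hibadh* to 2.16 for *Prpf38a* in WT tumor DNA against WT media, each a smaller difference than that of *Klrk1*.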

How the data were processed

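Total RNA of 9 cultures was hybridised, 1 array a sample, from 6 ug of RNA per the labels' protocols. The deposited intensity values are linear signals made by the authors with MAS5, per the submitters' processing notes. The MAS5 version is not given in the sources used here. The mean after trimming 2% at each end was 500 on every array.

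Of 45101 probe sets 64 were controls, and of the others 34945 carried 1 gene symbol, 932 several and 9160 none. Signals were taken as log2(signal + 16). Probe sets above the 40th percentile of the mean were kept, and the brightest stood for its gene. A linear model of the 3 groups was fitted to all genes, and separately to all probe sets, with limma 3.58.1 in R 4.3.3 (lmFit, eBayes with an intensity trend), with 2-sided p-values adjusted by Benjamini-Hochberg over all features tested. The fit was tested on simulated data.

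The members and gene lists were chosen with earlier results of these data known. Named genes are all members, the 3 called genes of each list with the smallest adjusted p, the 3 brightest T and NK markers, the measured NKG2D ligands, *Sting1* and the 5 genes most like *Klrk1* and *Gzmb*. Neighbouring genes, further markers, further granule genes and *Srgn*, *Ctsc*, *Clec2d* and *Siglech* fall outside this rule. The last 4, the further granule genes and the further dendritic cell and macrophage genes were chosen after their values were seen.

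Replicate numbers come from the titles, where a title without a number was taken as 1. Residuals from the group means correlated at 0.17 to 0.49 over the 9 same-numbered pairs of arrays and at -0.42 to 0.14 over the 18 others. The numbers therefore appear to pair the samples. The main model has no term for the number, so the SE and adjusted p given leave this pairing out unless the block is named. The model with the replicate number as a block was one of the alternatives. No protein sequences were used here.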

Additional observations from a re-analysis of the deposited data

How the results depend on the processing

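With the replicate number as a block, which pairs the samples, 176 genes were called in STING tumor DNA against WT media in place of 54, and the block changed no call of the 6 killer-cell genes tested. Fitting only the 2 groups compared gave 30. The *Klrk1* calls held throughout, at 3.01 to 3.77 in WT tumor DNA against WT media and -3.54 to -2.89 in STING tumor DNA against WT tumor DNA. For *Gzmb* in WT tumor DNA against WT media an offset of 1 gave 2.51 with an adjusted p of 0.069, by limma over all genes, and the probe set fit without a filter gave 0.056. For *Tyrobp* in the same comparison quantile normalization gave -0.27 with an adjusted p of 0.030. The cause of these changes was not tested. *Cd247*, *Gzmb* and *Prf1* had no value with a filter at the 60th percentile. No result changed sign with a call. Of the other genes named, quantile normalization ended calls of *Cd22*, *Clec2d*, *Clec5a*, *Fcer1g*, *Id2*, *Il7r*, *Irf4*, *Mertk* and *Treml4*, and that of *Cd28* in STING tumor DNA against WT tumor DNA, and the absence of a filter ended those of *Id2*, *Mertk* and *Mpo*, and taking the mean of a gene's probe sets ended those of *Cd22* and *Irf4*, while median centring and the fit without a variance trend each ended those of *Fcer1g*, *Id2* and *Mertk*.

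Leaving out an array or a number gave 1492 to 4207 genes in WT tumor DNA against WT media (4224 with all), 1379 to 3949 in STING tumor DNA against WT tumor DNA (3970 with all) and 4 to 131 in STING tumor DNA against WT media. In the order of WT tumor DNA against WT media and STING tumor DNA against WT tumor DNA, the ranges were 3.35 to 3.80 and -3.63 to -3.08 for *Klrk1*, 0.93 to 1.33 and -1.37 to -0.95 for *Cd247*, and 1.44 to 2.39 and -3.12 to -1.69 for *Gzmb*. Leaving out number 3 ended at least 1 call of *Ccl5*, *Ccr7*, *Cd22*, *Cd28*, *Cd300lb*, *Clec2d*, *Clec5a*, *Cpa3*, *Fcer1a*, *Fcer1g*, *Fcgr4*, *H60c*, *Id2*, *Il7r*, *Irf1*, *Irf4*, *Klra2*, *Klrg2*, *Lcp2*, *Mertk*, *Mpo*, *Nfkbid*, *Pik3cg*, *Tcf4*, *Tlr7*, *Trem2*, *Trem3* and *Treml4*, while those of *Serpinb9*, *Stx11*, *Tnfsf10*, *Slamf7*, *Il15ra*, *Hdc*, *Ikzf3* and *Vav2* held in every fit. Over the other settings *Cd247* was 0.77 to 1.37 and -1.40 to -0.78, smallest in size with the offset of 64. Only its brightest probe set lay above the filter, so taking the mean of a gene's probe sets did not bring in the others. The counts of called genes in the lists were taken for each list, comparison, direction and setting. Of these values, 1644 stayed within 1.5 times the main count and 204 did not. A count of 0 that stayed at 0 is among the 1644. All main counts in STING tumor DNA against WT media were 0, so the 1644 do not show how stable the other counts were. With 3 arrays a group and no detection calls, changes of genes near the floor are limited by signal over background.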
